A study of Mus musculus with 15 samples.

Results

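The 5 cortices of mice that received sham stimulation were examined on their own, to describe which RNAs were abundant in unstimulated tissue, where the markers of cell types and cortical layers lay, and which genes differed most from one cortex to another. The libraries were chosen by their treatment label alone and are 5 of the 15 libraries of the series, in which the other mice received magnetic stimulation. The mice were wild type, of the inbred strain C57BL/6J, and the labels name no transgene, deletion or drug. A sham session takes the place of repetitive transcranial magnetic stimulation, in which magnetic pulses are applied through the skull, and the cortex was taken 3 hours after it. The labels do not say what the sham session consisted of, nor the age or sex of the mice. The sample titles name the somatosensory cortex and the design text the sensorimotor cortex, so the tissue is called cortex here. Per the design text each group held 5 animals, and each library was taken as 1 animal. Total RNA was purified with an RNeasy Mini kit and sequenced from a stranded library preparation that removes ribosomal RNA with Ribo-Zero Plus.

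The cerebral cortex is a layered sheet in which excitatory neurons are sorted by layer and by the target of their axons, and are mixed with inhibitory interneurons, astrocytes, oligodendrocytes, microglia and vessel cells. Beneath it lie the white matter and the striatum, and deeper still the thalamus, the hypothalamus and the ventricles with their choroid plexus, each with transcripts that the cortex makes little of. A total RNA library also holds long RNAs that never leave the nucleus. In bulk tissue, fewer cells of a type and less RNA per cell cannot be told apart.

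Levels are given in CPM, a gene's counts scaled to a fixed library size after trimmed-mean (TMM) scaling, and, where genes are compared with each other, in CPM per kilobase (kb) of annotated exon. Total counts ran from 18484169 in sham 3 to 47807723 in sham 4, and between 33043 and 34756 genes had a count. With every library thinned to 18484169 counts, sham 4 had the fewest genes with a count, 29325, and the other libraries had 31861 to 34094. The 10 most abundant genes held 4.71% to 6.38% of the counts of a library, and 921 to 993 genes held 50% of them. Ddx3y, a helicase gene on the Y chromosome, was at 57.9 ± 6.14 CPM (SD, n = 5) with 51.8 to 67.4 CPM in the libraries, and Xist, the RNA that coats an inactive X chromosome, had 2 to 8 counts per library. The libraries were therefore alike in these markers of sex chromosomes.

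Messenger RNA of nuclear protein-coding genes made up most of each library. Its share of the counts was 88.8%, 89.2%, 87.5%, 91.2% and 91.2% in sham 1 to sham 5, or 89.6% ± 1.60 (SD, n = 5). Sham 4 and sham 5 had the highest shares and sham 3 the lowest. Long noncoding RNA genes held 2.76%, 2.43%, 3.11%, 1.44% and 2.07%, so that sham 3 was highest and sham 4 lowest. Loci that the annotation lists as TEC, transcribed loci awaiting experimental proof, held 0.466% ± 0.171 (SD, n = 5) and were also lowest in sham 4, at 0.189%. The 13 messengers encoded in mitochondrial DNA held 2.34% ± 0.396 (SD, n = 5), with 2.97% in sham 3 and 2.01% in sham 5. Pseudogenes held 2.65% ± 0.184 (SD, n = 5).

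Among the genes with the most counts was mt-Co1, a core subunit of respiratory complex IV encoded in mitochondrial DNA, at 9887, 9112, 11822, 8992 and 8294 CPM in sham 1 to sham 5, or 9622 ± 1354 (SD, n = 5). Sham 3 was highest and sham 5 lowest. Malat1, a long RNA of nuclear speckles, ran from 1642 CPM in sham 4 to 9825 CPM in sham 3, a CV of 52.3%. A gene with no symbol at 5325 CPM had a CV of 60.5%. Slc1a2, the main glutamate transporter of astrocytes, was at 4374 ± 413 CPM (SD, n = 5). Below it were Camk2a, a subunit of a calcium-dependent kinase of synapses, at 2781 ± 272 CPM, and Snap25, a fusion protein of synaptic vesicles, at 2638 ± 297 CPM (SD, n = 5 each). The ranges of Camk2a and Snap25 overlapped, and that of Slc1a2 lay above both. Of the 15 genes with the most counts, 4 had no symbol in the annotation used and are not named.

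A pair of the 15 genes could not be counted apart. Gm28437, a nuclear pseudogene, and mt-Co3, another mitochondrial subunit of complex IV, had 3313 ± 395 and 3285 ± 385 CPM (SD, n = 5 each), and the order of the libraries was the same for both. All 753 windows of 31 bases in the annotated Gm28437 transcript were also found in mt-Co3. The starts of both transcripts, as GENCODE release M21 (assembly GRCm38) gives them, show what a read would have to separate. No letter is in capitals because no base differs.
mt-Co3: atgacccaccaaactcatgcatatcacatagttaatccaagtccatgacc
Gm28437: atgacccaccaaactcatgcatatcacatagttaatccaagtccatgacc
The same held for Gm10925, at 2549 ± 404 CPM (SD, n = 5), whose 648 windows were all found in mt-Atp6, a subunit of ATP synthase. Of the windows of Gm29216, at 3213 ± 442 CPM (SD, n = 5), 449 of 462 were found in mt-Co1. The counts of these pseudogenes and of their mitochondrial partners are therefore uncertain.

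**Figure D1:**
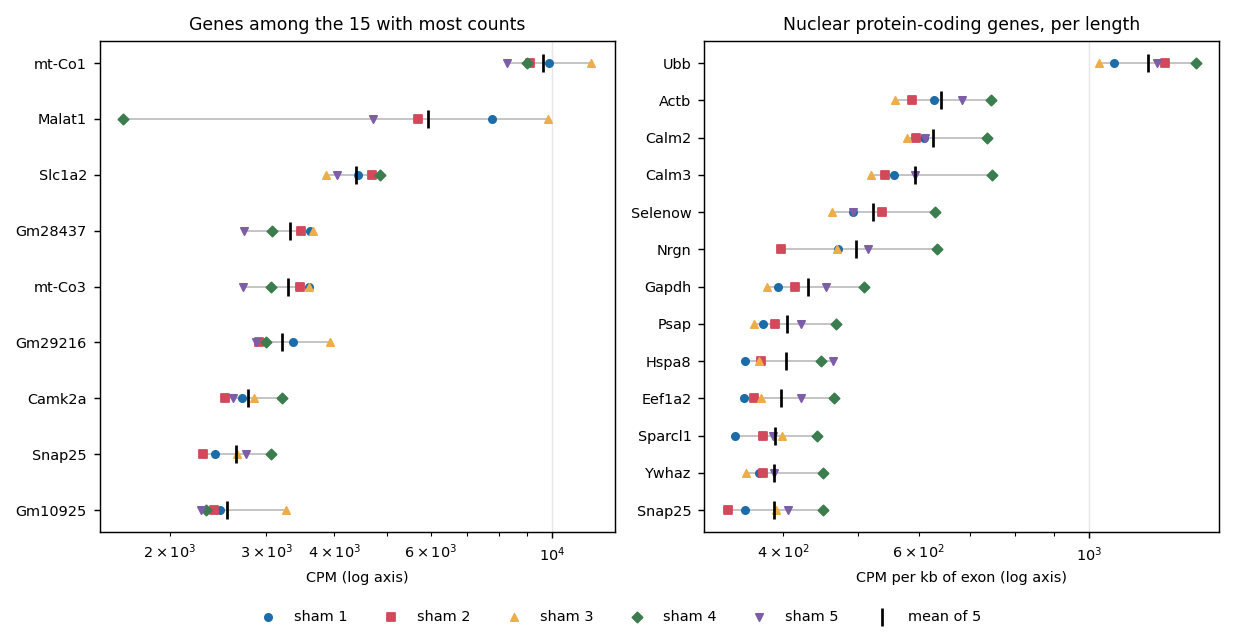
The left panel plots the CPM (log axis) of 9 of the 15 genes with the most counts, and the right panel the CPM per kb of exon (log axis) of 13 of the 15 highest nuclear protein-coding genes; symbols are the 5 sham libraries and the vertical bar is their mean. Malat1 spreads from 1642 to 9825 CPM while most other genes keep within narrow ranges, and in the right panel Ubb is the highest of the genes shown.

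Per kb of exon, Ubb, a gene for ubiquitin, was among the highest of the nuclear protein-coding genes, at 1194 ± 140 CPM per kb (SD, n = 5). Actb, cytoplasmic actin, was at 641 ± 74.8 CPM per kb, and the calcium sensors Calm2 and Calm3 were at 627 ± 62.9 and 593 ± 90.8 CPM per kb (SD, n = 5 each), with ranges that overlapped. Neurogranin (Nrgn), which binds calmodulin in dendrites, was at 497 ± 87.3 CPM per kb (SD, n = 5). Its CPM was lowest in sham 2, at 576, and highest in sham 4, at 921. Also among the 15 were Selenow, a selenoprotein, Gapdh, a glycolytic enzyme, Psap, a lysosomal precursor, the chaperone Hspa8, the neuronal elongation factor Eef1a2, the matrix protein Sparcl1, the 14-3-3 protein Ywhaz and Snap25, all between 389 and 523 CPM per kb.

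Markers of the cell types of cortex were all present, and their levels per length fell in a wide order. Neuronal Snap25 (389 ± 43.7 CPM per kb, SD, n = 5), the astrocytic enzyme Glul (370 ± 39.96) and the astrocytic transporter Slc1a2 (333 ± 31.5) were highest and overlapped. Slc17a7, the vesicular glutamate transporter of cortical excitatory neurons, was at 1128, 877, 1159, 1427 and 1235 CPM, or 216 ± 36.9 CPM per kb (SD, n = 5). It was lowest in sham 2 and highest in sham 4. Gad1, which makes GABA in inhibitory neurons, was at 42.5 ± 3.75 CPM per kb (SD, n = 5), and its range lay wholly below that of Slc17a7. Mbp, a protein of myelin, was at 117 ± 16.6 CPM per kb (SD, n = 5) and highest in sham 2, at 1229 CPM. Microglial Csf1r and Cx3cr1, the precursor marker Pdgfra and the endothelial junction gene Cldn5 lay between 4.20 and 12.2 CPM per kb.

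The peptide Sst, a marker of an interneuron class, was at 77.7, 66.6, 76.7, 99.4 and 103 CPM, or 117 ± 21.9 CPM per kb (SD, n = 5). Pvalb, a calcium buffer of fast-spiking interneurons, was at 41.3 ± 8.99 CPM per kb and Vip at 9.07 ± 1.19 CPM per kb (SD, n = 5 each). The ranges of Sst, Pvalb and Vip per kb did not overlap, so their order was the same in every library. Npy, a peptide of Sst and Lamp5 interneurons, was at 131 ± 30.6 CPM per kb (SD, n = 5), above Sst in each library though their ranges overlapped.

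Markers of every cortical layer were found. Lamp5, of upper-layer neurons and a class of interneurons, was at 52.9 ± 9.17 CPM per kb (SD, n = 5). Cux2, a transcription factor of the upper layers, was at 207, 148, 199, 225 and 193 CPM, lowest in sham 2. Rorb, a nuclear receptor of layer 4, was at 163, 171, 170, 192 and 159 CPM, or 171 ± 12.9 CPM (SD, n = 5), and varied little. Layer 5 was marked by Bcl11b at 148 ± 18.4 CPM and by Fezf2, the transcription factor that specifies output neurons to the brainstem and cord, at 28.2 ± 7.70 CPM (SD, n = 5 each). Fezf2 was at 16.8 CPM in sham 2 and at 25.1 to 35.7 CPM in the other libraries. In layer 6, Tle4 was at 89.7, 90.1, 85.1, 89.0 and 90.2 CPM, a spread of 2.10 CPM (SD, n = 5) and near counting error, while Foxp2 ran from 23.2 CPM in sham 4 to 36.6 CPM in sham 2. The layer 4 sodium channel gene Scnn1a and the layer 6 receptor Ntsr1 were low, at 4.51 ± 0.987 and 8.68 ± 0.774 CPM (SD, n = 5 each). Markers from Lamp5 to Ntsr1 were thus measured in every library.

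**Figure D2:**
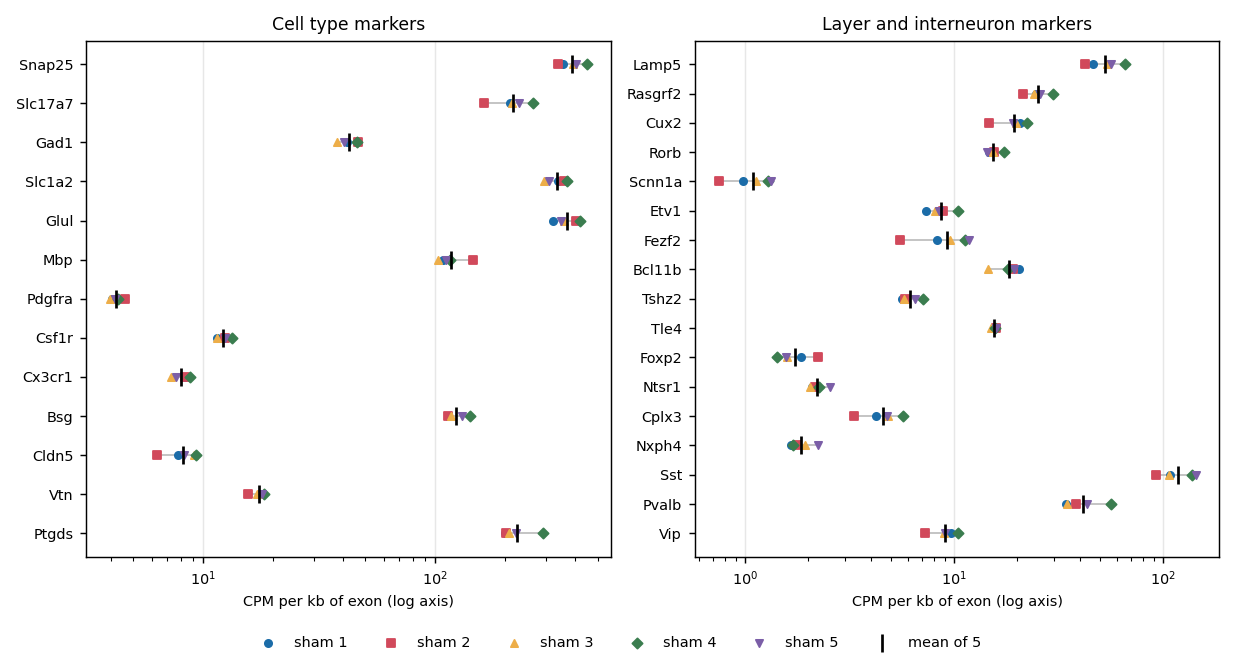
CPM per kb of exon (log axis) of cell type markers (left) and of layer and interneuron markers (right) in the 5 sham libraries, each symbol 1 library and the vertical bar their mean. Tle4 varies little (85.1 to 90.2 CPM before division by length), whereas Fezf2, Cux2 and Scnn1a have their lowest point in sham 2.

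Within families of receptors and peptides the order of levels was partly resolved. Of 21 glutamate receptor genes, the AMPA subunit Gria1 (63.1 ± 5.24 CPM per kb, SD, n = 5) and the NMDA subunit Grin2b (57.9 ± 7.48) were highest, followed by the metabotropic Grm3 at 48.2, Gria2 at 41.8, Grin2a at 41.3 and the obligatory NMDA subunit Grin1 at 37.4 CPM per kb. None of the 9 highest differed from its neighbour beyond their ranges until Gria3, at 29.6, which lay above Gria4, at 22.0 CPM per kb. Grin2d was the lowest, at 1.60 CPM per kb. Of the GABA receptor genes, the metabotropic subunit Gabbr1 (107 ± 7.91 CPM per kb, SD, n = 5) was the highest, and its range lay above that of the second metabotropic subunit Gabbr2 (78.0 CPM per kb). The ionotropic Gabrg1 was lowest, at 2.60 CPM per kb. Among 18 neuropeptide genes, Cck (144), Npy (131) and Sst (117 CPM per kb) led and overlapped. The 7 highest, down to the granin Chgb at 50.8, lay above Vip at 9.07 CPM per kb with no overlap.

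The variation of each gene was then measured. The biological coefficient of variation (CV) is the spread of CPM beyond counting error as a percent of the mean, and its median over the 17900 genes tested was 10.3% (quartiles 6.00% and 18.8%). A gene was called variable where its 5 counts spread more than genes of like abundance (goodness-of-fit test of edgeR against the dispersion trend, adjusted p under 0.05). By this rule 565 genes were called, which is 3.16% of those tested. All 565 had a mean of at least 1 CPM, and 50 of the 2315 genes over 100 CPM were among them. Between the highest and the lowest library, 3412 genes (19.1%) differed by over 2-fold, and 330 of the called genes by over 4-fold. Without sham 4 the number called was 316, of which 224 were also called with it, and without any other library it was between 402 and 428.

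Variation differed by class of gene. Of nuclear protein-coding genes 258 of 14093 (1.83%) were called, with a median CV of 9.09%. The long noncoding genes had 74 of 1405 called (5.27%) and a median CV of 22.5%, and the TEC loci 163 of 879 (18.5%) and 43.0%. Among the TEC loci tested, 780 (88.7%) were lowest in sham 4, against 31.4% of all genes tested. Their median level in sham 4 was 0.264 of the mean of the other libraries, while that of protein-coding genes was 1.02 of it. The called genes were unevenly spread over the libraries: 382 (67.6%) were lowest in sham 4, and 309 (54.7%) had sham 1 and sham 3 above the other 3 libraries, against 18.9% of all tested.

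**Figure D3:**
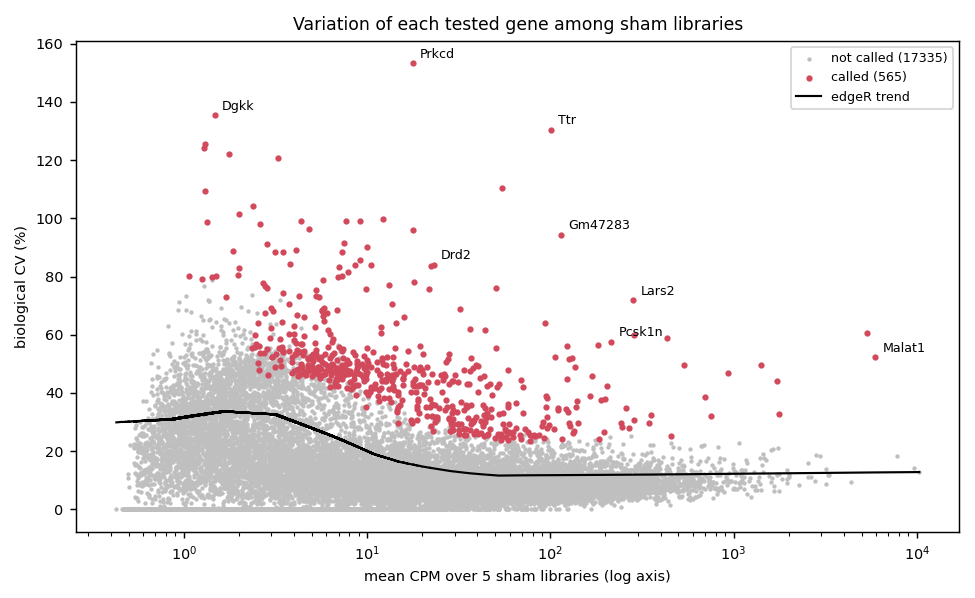
Biological CV (%) of each of the 17900 genes tested against its mean CPM over the 5 sham libraries (log axis); red points are the 565 called genes and the black line is the trend that edgeR fitted. Most genes lie below the line, while Prkcd, Ttr, Gm47283, Drd2 and Lars2 stand far above it.

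The steadiest genes did not differ beyond counting error. Among 7552 genes with at least 20 CPM, 144 had a spread no larger than counting error. All 7552 were ranked by total CV. This rank comes from the same libraries that it describes, so it does not show which genes would be steadiest in others. First was 1810013L24Rik, at 89.5, 88.6, 88.4, 88.6 and 88.3 CPM. After it came Atf7ip, which binds a histone methyltransferase, at 123 to 126 CPM, and Nap1l1, a histone chaperone, at 165 to 169 CPM. Also among the 10 steadiest were Cnot2, a subunit of the complex that shortens poly(A) tails, at 50.5 to 52.0 CPM, and Hexa, a lysosomal enzyme, at 37.3 to 38.6 CPM. Zfp131, Ppp1r12c, Osbpl5 and Lgi3 were others. Usual reference genes, which were not picked by their spread, varied more in these libraries. Actb and Gapdh had CVs of 11.6% and 12.1%, though none of the 15 housekeeping genes was called.

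Of 49 gene lists for cell types, regions, layers and functions, 23 had no called member, and 6 had a mean level that differed by over 1 log2 unit between the highest and the lowest library. The widest were choroid plexus (2.76), striatal projection neuron (1.82), nuclear-retained long noncoding RNA (1.46), thalamic neuron (1.32), blood leukocyte (1.22) and ependymal (1.00 log2 CPM). The leukocyte list rests on 3 tested members near the detection limit. The ependymal list was also low, with a median of 1.08 CPM over its 8 tested members. Its range was 0.62 log2 CPM without sham 2, 0.58 without sham 4 and 0.21 on the deposited variance-stabilized values. The median range over lists was 0.31 log2 CPM.

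**Figure D4:**
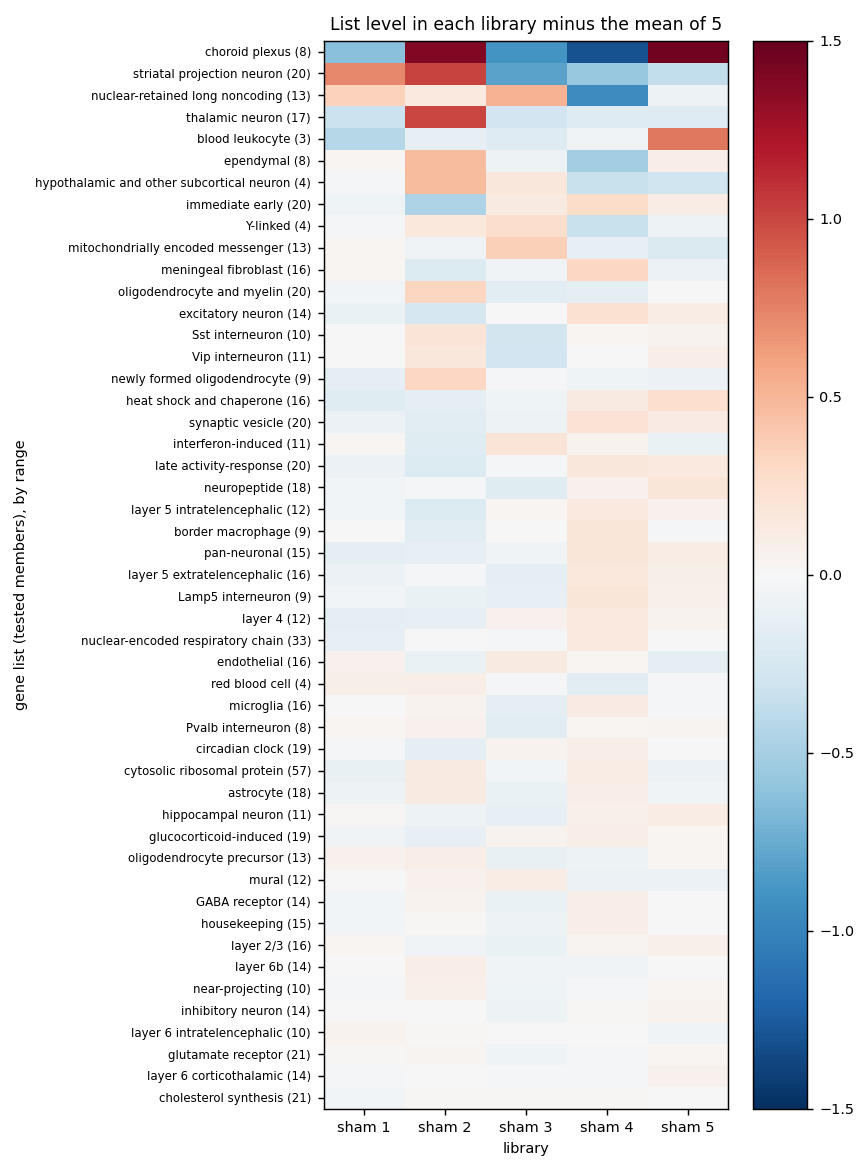
Mean level of each of the 49 gene lists in each sham library minus its mean over the 5 (color, log2 CPM), ordered by range, with the number of tested members in parentheses. Choroid plexus markers are high in sham 2 and sham 5, striatal markers in sham 1 and sham 2, thalamic markers in sham 2, and nuclear-retained RNAs are low in sham 4.

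Long RNAs that stay in the nucleus set sham 4 apart. Malat1 was at 7776, 5691, 9825, 1642 and 4715 CPM in sham 1 to sham 5 (CV 52.3%, adjusted p = 3.76e-17). Sham 3 was highest and sham 4 lowest. Meg3, a maternally expressed RNA of the imprinted Dlk1 region, followed the same order with 1905, 1319, 2256, 454 and 1134 CPM (adjusted p = 4.33e-15). Kcnq1ot1, the antisense RNA that silences an imprinted cluster on the paternal chromosome, was at 216, 180, 249, 45.6 and 158 CPM (adjusted p = 1.35e-17). Of the 13 tested members of the list 8 were called, 11 were lowest in sham 4 and 9 were highest in sham 3. The shares over all genes tested were 3.16%, 31.4% and 23.6%. Snhg11 (335 to 1491 CPM), Miat (48.2 to 217 CPM), Mirg (14.9 to 69.0 CPM), Neat1, the scaffold of paraspeckles (10.7 to 43.7 CPM), and Snhg14, which spans the Ube3a antisense (885 to 2260 CPM), made up the rest of the called members. Rian at 441 to 810 CPM was not called (adjusted p = 0.122), nor were Pantr1 at 24.9 to 28.4 CPM and Peg13, which was highest in sham 4 at 346 CPM. The list was therefore not uniform, and the members that varied least included well-expressed RNAs. Summed over the list, the level was 14684, 11401, 17349, 4258 and 9387 CPM. Without sham 4 the range of the list was 0.57 log2 CPM and 5 members were called: Kcnq1ot1, Neat1 and Snhg14 lost their call, and Malat1, Meg3, Snhg11, Miat and Mirg kept it.

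Other called genes were lowest in sham 4 as well. There were 260 called genes (46.0% of those called) with less than 50% of the next lowest library in sham 4, against 6.70% of all genes tested. Of the 260, 163 were TEC loci, 22 protein coding, 19 antisense, 18 long intergenic and 11 sense intronic. The median GC content of their transcripts was 39.6%, and that of tested protein-coding genes was 50.2%. As most of the 260 are not protein coding, these values compare unlike classes. The GC content of other TEC and noncoding loci was not examined. Rtl1, a retrotransposon-derived gene of the same imprinted region as Meg3, was at 38.1, 31.8, 41.2, 6.49 and 20.3 CPM (adjusted p = 2.46e-16). Gm45159 was at 48.2, 39.4, 43.5, 7.44 and 29.7 CPM and lost its call without sham 4 (adjusted p = 0.586). Sham 4 was also the library with the most counts and the fewest genes at equal depth, and the part of depth in this pattern was not tested.

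Markers of striatal projection neurons, the GABA neurons of the caudate and putamen, were high in sham 1 and sham 2. Drd1, the dopamine receptor of the direct pathway, was at 53.4, 68.1, 16.6, 20.2 and 24.9 CPM (CV 62.1%, adjusted p = 1.32e-16). Drd2, the dopamine receptor of the indirect pathway, was at 39.3, 48.6, 6.75, 8.18 and 12.7 CPM (CV 84.0%, adjusted p = 3.68e-27), and Adora2a, the adenosine receptor of the same neurons, at 37.8, 47.1, 5.95, 9.30 and 11.7 CPM (adjusted p = 4.67e-26). For all 21 members with a count, sham 1 and sham 2 were above the other 3 libraries, against 10.6% of all genes tested. Sham 2 was the highest for 20 of the 21, against 19.96% of all genes tested. Sham 1 and sham 2 stood together, and sham 3 was lowest for all 3 receptors. Of 20 members tested 16 were called, where the share over all genes was 3.16%. The signalling genes Pde10a (148 to 500 CPM), Rgs9 (19.3 to 101 CPM), Ppp1r1b (68.0 to 151 CPM), Gng7 (56.9 to 185 CPM) and Adcy5 (169 to 380 CPM) were among them, as was the opioid peptide gene Penk with 130, 180, 38.1, 51.6 and 67.6 CPM (adjusted p = 4.87e-21). Foxp1, a transcription factor that cortex also makes in quantity, was at 173 to 219 CPM and was not called. The summed level of the list was 2068 and 2396 CPM in sham 1 and sham 2 and 886 to 1124 CPM in the others. Without sham 1 there were 14 members called and without sham 2 there were 13.

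Genes of acetylcholine neurons, which lie scattered in the striatum and basal forebrain, followed the same libraries. Slc5a7, the choline transporter, was at 6.62, 12.2, 1.33, 1.62 and 2.24 CPM (adjusted p = 2.82e-06). Chat, the enzyme that makes acetylcholine, was at 3.11, 4.38, 0.585, 0.790 and 1.09 CPM (adjusted p = 0.00818). Sham 1 and sham 2 were again apart from the rest, but without sham 2 neither gene was called (adjusted p = 0.176 and 0.265), nor was Chat without sham 3 (adjusted p = 0.113). The layer lists hold several genes that are also striatal, and Penk, in the layer 2/3 and layer 6 intratelencephalic lists, and Drd1, in the layer 6b list, were among their called members.

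Markers of thalamic relay neurons, which send sensory input to the cortex, were high in sham 2 alone. Prkcd, a protein kinase C of the thalamus, had the highest CV of the called genes, 153%, with 6.08, 66.4, 5.79, 4.41 and 5.99 CPM (adjusted p = 1.76e-50). Tcf7l2, a transcription factor of thalamic neurons that newly formed oligodendrocytes also use, was at 9.77, 48.6, 11, 9.85 and 10.2 CPM (adjusted p = 2.52e-17). Slc17a6, the vesicular glutamate transporter of subcortical excitatory neurons, was at 24.5, 70.5, 25.8, 31.8 and 30.8 CPM (adjusted p = 3.86e-08). The other 4 libraries lay close together for each gene and sham 2 stood above all of them. Of the 17 members tested 15 were highest in sham 2 and 8 were called. The shares over all genes tested were 19.96% and 3.16%. Among the called members were Synpo2 (33.8 CPM in sham 2, 4.85 to 9.23 elsewhere), Plekhg1 (71.3 and 21.5 to 22.5 CPM), Zic1 (30.6 and 8.54 to 11 CPM) and the calcium buffer Calb2 (26.2 and 4.52 to 8.19 CPM). Members that the cortex shares were not called: Rora was at 163 to 240 CPM, Pdp1 at 217 to 297 CPM and Necab1 at 126 to 147 CPM. Without sham 2 the list's range was 0.13 log2 CPM and 0 of its members were called.

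Several genes known from the hypothalamus were highest in sham 2. The list of hypothalamic and other subcortical neurons was mixed. Of its 13 members, with or without the filter, 8 were highest in sham 2 and 4 in sham 3. Of the 4 members that passed the filter 3 were highest in sham 2, against 19.96% of all genes tested, and 1 in sham 3. None of these 4 was called. Hcrt, the orexin precursor of wake-promoting neurons, had 2, 71, 0, 1 and 0 counts in sham 1 to sham 5, and Pmch, the precursor of melanin-concentrating hormone, had 2, 85, 4, 0 and 3. Gal, the peptide galanin, had 2, 28, 2, 2 and 0 counts, and Gbx2, a transcription factor of the developing thalamus, 1, 48, 0, 2 and 2. These genes fell below the filter, which asks for counts in all 5 libraries, and a count of 0 allows up to 3 counts. With no filter all 4 were called (adjusted p = 1.09e-10 for Hcrt, 1.54e-09 for Pmch, 0.00241 for Gal and 1.83e-06 for Gbx2). Several genes of high CV in the filtered set had the same single high library: Dgkk (5.05 CPM in sham 2, 0.372 to 1.02 elsewhere), Irs4 (4.26 and 0.478 to 0.614 CPM), Gpr101 (5.65 and 0.585 to 1.05 CPM), Dlk1 (10.4 and 1.27 to 1.97 CPM), Baiap3 (25.2 and 4.17 to 6.25 CPM) and the peptide gene Nts (3.71 and 0.483 to 1.05 CPM). Agt, the angiotensin precursor that astrocytes of deep regions make, was at 21.1 CPM in sham 2 and at 3.40 to 4.96 CPM in the others. All 7 lost their call without sham 2. In all, 26 called genes were over 2-fold above the next library in sham 2, against 10 in sham 3 and no more than 1 in each other library. Myelin genes moved the same way by less: 19 of the 20 members of the oligodendrocyte list were highest in sham 2, against 19.96% of all genes tested, with a summed level of 4294 CPM there and 2976 to 3441 CPM elsewhere, and 0 were called. The part of these subcortical and myelin markers in other differences of sham 2 was not tested.

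Choroid plexus markers were high in sham 2 and sham 5. Ttr, transthyretin, which the choroid plexus secretes into the cerebrospinal fluid, was at 10.6, 238, 2.39, 1.43 and 252 CPM (CV 131%, adjusted p = 7.70e-229). This was the smallest p of all genes tested, and the highest library exceeded the lowest by 176-fold. Kl, the membrane protein klotho, was at 4.42, 14.7, 2.71, 3.05 and 17.9 CPM (adjusted p = 1.50e-09), and Prlr, the prolactin receptor, at 0.941, 9.83, 1.65, 1.08 and 8.19 CPM (adjusted p = 6.80e-08). Clic6, a chloride channel, and F5, coagulation factor V, were called with the same pair of libraries on top, at 7.62 and 5.89 CPM and at 5.45 and 5.40 CPM. For 16 of the 17 members, which include those below the filter, sham 2 and sham 5 were above the other 3 libraries. Over the genes tested alone, this share was 5.07%. The exception was Kcnj13, at 0.527 to 1.94 CPM. The filter left 8 members, of which 5 were called, where the share over all genes was 3.16%. With no filter 10 of the 17 were called, where 403 of all 41110 genes were. Folr1, a folate receptor of this epithelium below the filter, had 10, 46, 4, 10 and 48 counts. Enpp2, which oligodendrocytes and other cells also make, was at 215 to 357 CPM and was not called (adjusted p = 0.0518). Markers of ependymal cells, which line the same ventricles, had 8 members tested and 0 called. Their mean level ranged by 1.00 log2 CPM, and their summed level was 30.6 to 39.3 CPM. Of these 8 members 5 were highest in sham 2 and 5 lowest in sham 4, against 19.96% and 31.4% of all genes tested.

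**Figure D5:**
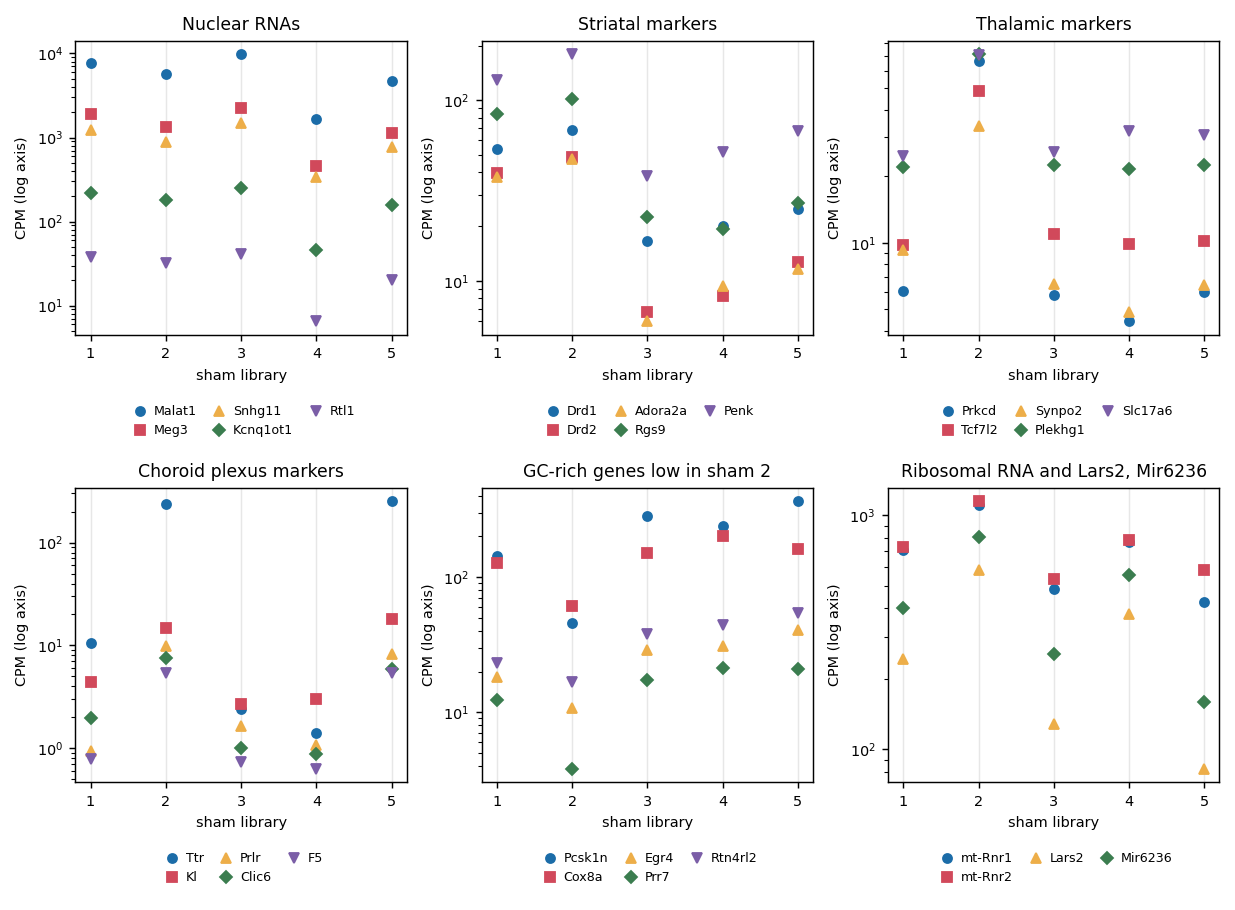
CPM (log axis) of selected genes in sham 1 to sham 5, 1 symbol per gene: nuclear RNAs, striatal, thalamic and choroid plexus markers, GC-rich genes low in sham 2, and ribosomal RNAs with Lars2 and Mir6236. Malat1 drops to 1642 CPM in sham 4, Prkcd rises only in sham 2 (66.4 CPM), and Ttr in sham 2 and sham 5 (238 and 252 CPM).

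Genes that neuronal firing induces within minutes, the immediate early genes, differed among the unstimulated cortices. Fos was at 39.7, 31.3, 36.0, 45.5 and 36.1 CPM and Npas4 at 29.8, 21.4, 30.5, 26.8 and 23.5 CPM, and neither was called. Arc, a synaptic protein whose RNA travels to active synapses, was at 358, 358, 519, 593 and 438 CPM (CV 22.6%, adjusted p = 0.154). Sham 2 was lowest for each of these 3 genes, level with sham 1 for Arc. Of the 20 genes in the list 6 were called, 17 were lowest in sham 2 and 12 were highest in sham 4, where the shares over all genes tested were 3.16%, 20.5% and 29.2%. Egr4, a transcription factor, varied most, with 18.1, 10.7, 29.1, 31 and 40.4 CPM (adjusted p = 1.21e-07). Junb was at 66.8, 34.2, 67.6, 79.1 and 66.0 CPM (adjusted p = 0.00185), and Egr3 at 219, 154, 225, 330 and 302 CPM (adjusted p = 0.00368). Fosb (18.6 to 40.2 CPM), Nr4a2 (37.3 to 69.6 CPM) and Ier5 (52.4 to 96.8 CPM) were the other called members. Their lowest value was in sham 2 throughout. Without sham 2 only Egr4 remained called, and likewise with a correction for GC content. Of the 20 late activity genes, which follow within hours, Vgf, a secreted granin, was called, with 227, 140, 227, 308 and 318 CPM (adjusted p = 0.000749), a call lost without sham 2 (adjusted p = 0.593). Bdnf at 26.5 to 40.5 CPM and Nptx2 at 37.3 to 66.8 CPM were not. With the correction for GC content 1 late activity gene was called, which was Bdnf (adjusted p = 0.00641), and Vgf was not.

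GC content moved with the libraries. Across 14091 protein-coding genes of 1 library, which are not independent replicates, the Spearman correlation of a gene's deviation from its mean with its transcript GC content was -0.380 in sham 2, -0.104 in sham 1, 0.0127 in sham 3, 0.205 in sham 4 and 0.271 in sham 5. In the highest quintile of GC content (55.8% to 74.2%) the median deviation was -0.11 log2 in sham 2 and 0.09 in sham 4, and in the lowest quintile (33.7% to 44.6%) it was 0.07 and -0.04. The immediate early genes had a median GC content of 55.7%, on the side of the genes that were low in sham 2. Of 16 called genes with less than 50% of the next lowest library in sham 2, the 9 with a GC value had a median of 59.5%, and the other 7 had none. The 16 were 2.83% of the called genes, and 0.201% of all genes tested had this pattern in sham 2. Pcsk1n, a secreted inhibitor of prohormone convertase 1 with 57.3% GC, was at 143, 46.0, 285, 239 and 364 CPM (adjusted p = 2.71e-27). Prr7, a synaptic protein with 69.0% GC, was at 12.3, 3.83, 17.3, 21.1 and 20.9 CPM (adjusted p = 4.63e-08), and Cox8a, a small subunit of complex IV with 58.6% GC, at 127, 60.9, 151, 202 and 162 CPM (adjusted p = 4.42e-08). Sham 2 was below all other libraries for each. With an offset for GC content Pcsk1n, Prr7 and Cox8a were still called (adjusted p = 9.32e-16, 2.90e-05 and 0.000609), though without sham 2 Prr7 and Cox8a were not (adjusted p = 0.696 and 0.489), while Cdk5r2, a neuronal activator of the kinase Cdk5 with 165 CPM in sham 2 and 238 to 389 CPM elsewhere, was not (adjusted p = 0.385). Over all genes the offset left 459 genes called, 330 of them among the 565. The part of GC content in the immediate early differences was not tested beyond this offset.

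Neuropeptide genes varied more than most: the median CV of 18 members was 26.8% and 5 were called. Over all genes tested the median CV was 10.3% and 3.16% were called. Cck, which had the highest mean of them per kb, was at 133, 98.2, 218, 220 and 273 CPM (adjusted p = 3.26e-07), with sham 1 and sham 2 below the other 3 libraries. Penk and Tac1, peptides of striatal projection neurons, had the opposite order, and Tac1 was at 24.1, 28.9, 8.98, 10.1 and 11.5 CPM (adjusted p = 1.46e-06). Sst (CV 18.5%) and Npy (CV 23.2%) were not called. Of the called peptides, Cck and Vgf were thus lowest in sham 2, and Penk, Tac1 and Nts highest there. With the GC offset 4 of the 18 were called, and Vgf was not.

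Several noncoding RNAs and Lars2 shared an order of libraries. The ribosomal RNAs of mitochondria, mt-Rnr1 and mt-Rnr2, were at 709, 1103, 482, 769 and 426 CPM (adjusted p = 6.24e-06) and at 728, 1146, 533, 785 and 582 CPM (adjusted p = 0.00274). The call of mt-Rnr2 was lost without sham 2 (adjusted p = 0.685). Lars2, the mitochondrial leucyl-tRNA synthetase, was at 244, 585, 128, 377 and 82.4 CPM (CV 71.8%, adjusted p = 7.91e-31). Mir6236, a locus annotated as a microRNA, was at 400, 806, 254, 553 and 159 CPM (adjusted p = 9.46e-19). Sham 2 was highest and sham 4 second for all 4 genes, and sham 5 or sham 3 lowest. How many of the Mir6236 counts come from a mature microRNA was not tested. As the library preparation removes ribosomal RNA, the counts of mt-Rnr1 and mt-Rnr2 are what remained after it. They held 0.0998% to 0.227% of the counts of a library. The part of this removal in the differences of the 4 genes was not tested.

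Of the genes for histone H3 of the replication cluster, whose messengers lack a poly(A) tail and are made in S phase, 4 that were called are described, chosen for their spread or their place in the components. All were highest in sham 5. Hist1h3h was at 3.00, 1.22, 9.57, 5.20 and 18.4 CPM (adjusted p = 3.84e-10). Hist1h3i was at 3.19, 2.09, 12, 7.13 and 21.5 CPM (adjusted p = 3.43e-11), and Hist1h3d at 3.66, 2.53, 12, 7.04 and 24.7 CPM (adjusted p = 2.07e-12). The order of the libraries was the same for all 3, and Hist1h3b followed it too with 1.34 CPM in sham 2 and 17.6 CPM in sham 5. The calls of Hist1h3b and Hist1h3d were lost without sham 5 (adjusted p = 0.0730 and 0.0652). Their relatives Hist1h3e, at 4.50 to 14.1 CPM (adjusted p = 0.0876), and Hist1h3g, at 1.18 to 3.65 CPM (adjusted p = 1.00), were not called. These genes are near copies and may share reads: 325 of the 381 windows of 31 bases in Hist1h3i were found in Hist1h3h. The 4 called genes carry the stretch shown here, from GENCODE release M21, which starts at the first codon of the histone.
H3 stretch: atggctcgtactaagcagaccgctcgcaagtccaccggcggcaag
The GC content of the stretch is 62.2%, while that of the transcripts ran from 49.6% in Hist1h3d to 67.4% in Hist1h3h. All 4 genes were lowest in sham 2, and all stayed called with the GC offset (adjusted p = 2.59e-15 for Hist1h3d).

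A few genes were high in sham 3. Gm47283 was at 48.5, 119, 299, 38.5 and 66.8 CPM (CV 94.3%, adjusted p = 1.23e-40), and Gm21887, whose 501 windows of 31 bases were all found in Gm47283, at 15.9, 36.1, 160, 21.1 and 37.7 CPM (adjusted p = 5.50e-51). Reads of Gm21887 cannot be told from those of Gm47283, whose other stretches were not compared. The messengers of mitochondrial DNA were also highest in sham 3 for 11 of 13 genes, against 23.6% of all genes tested. Only mt-Nd6, the subunit encoded on the light strand, was called among them, with 55.7, 66.6, 79.1, 40.5 and 34.7 CPM (adjusted p = 0.000156), and not without sham 5 (adjusted p = 0.0848). Eif2s3y, a translation factor gene of the Y chromosome, was at 26.6, 31.9, 41.8, 19.4 and 24 CPM and lost its call with the GC offset and without sham 3, sham 4 or sham 5 (adjusted p = 0.958, 0.923, 0.214 and 0.0830).

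Lists for the cell types of the cortex itself ranged by less than those for the striatum, the thalamus and the choroid plexus. The astrocyte list ranged by 0.23 log2 CPM, microglia by 0.26, inhibitory neurons by 0.13 and endothelial cells by 0.27, and 0 of their 18, 16, 14 and 16 tested members were called, where the share over all genes was 3.16%. Other lists ranged more: Sst interneurons by 0.47 log2 CPM with 1 of 10 called, Vip interneurons by 0.45 with 4 of 11 called and a median CV of 28.4%, oligodendrocytes by 0.48 with 0 of 20 called, newly formed oligodendrocytes by 0.44 with 1 of 9 called, and meningeal fibroblasts by 0.52 with 1 of 16 called. The called gene of the Sst list was Calb2, and those of the Vip list were Calb2, Penk, Chat and Cck. Calb2 is also in the thalamic list and Penk in the striatal list, and Chat followed the striatal libraries. Vip itself (CV 12.7%) and Sst were not called. In the newly formed oligodendrocyte list the called gene was Tcf7l2, also in the thalamic list. The excitatory neuron list ranged by 0.48 log2 CPM, with 12 of 14 members lowest in sham 2, against 20.5% of all genes tested. Neurod2, a transcription factor of excitatory neurons, was at 73.3, 52.4, 102, 118 and 111 CPM (adjusted p = 0.000365) and Emx1, a transcription factor of cortical progenitors and neurons, at 11.9, 7.07, 18.8, 18.1 and 17.3 CPM (adjusted p = 0.0202); the third called member was Slc17a6, high in sham 2. Sham 2 was lowest for both transcription factors, and without it or with the GC offset neither was called. Over the 8 layer lists, with ranges of 0.09 to 0.35 log2 CPM, 7 of 104 tested entries were called, with Fezf2 and Penk entered in 2 lists each. Fezf2 was among them (adjusted p = 0.0347), and its call was lost with the GC offset (adjusted p = 0.159), and without sham 1, sham 2 or sham 5 (adjusted p = 0.0508, 1.00 and 0.264). The layer 6 corticothalamic list had the narrowest range of these, 0.09 log2 CPM, with 0 of 14 called.

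Several functional lists were steady. Over all genes tested 3.16% were called. The 21 genes of cholesterol synthesis had the narrowest range of all, 0.07 log2 CPM, with a median CV of 6.13% and 0 called: Hmgcs1, an enzyme of its early steps, was at 193, 197, 189, 210 and 189 CPM. Glutamate receptors ranged by 0.10 and GABA receptors by 0.20 log2 CPM, with 0 called. In the glucocorticoid list, Fkbp5, a co-chaperone of the steroid receptor, was at 25.3 to 33.1 CPM and Tsc22d3 at 59.8 to 77.7 CPM, and 1 of 19 members was called, the lipid-droplet gene Plin4 (7.39 CPM in sham 4, 12.2 to 19.2 elsewhere, adjusted p = 0.0323, not called without sham 3, sham 4 or sham 5). Of 19 clock genes the output gene Dbp was called, with 19.8, 12.2, 30.6, 22.6 and 28.5 CPM (adjusted p = 0.00864), and Per1 at 144 to 198 CPM and Per2 at 38 to 59.3 CPM were not; without sham 2, sham 3 or sham 5 Dbp was not called. The heat shock and chaperone list was less steady. It ranged by 0.43 log2 CPM, and 2 of its 16 tested members were called, above the share over all genes. These were Hspa1a (6.32 to 18.9 CPM) and Hspa1b (8.05 to 29.9 CPM), lowest in sham 2 and highest in sham 5. Neither was called without sham 2 (adjusted p = 0.602 and 0.186). Among 57 ribosomal protein genes 1 was called, Rpl13, at 56.5 to 101 CPM, and among 33 nuclear genes of the respiratory chain Cox5a (11.8 to 34.4 CPM) and Cox5b (36.5 to 96.5 CPM). The call of Rpl13 was lost without any library but sham 4 and with the GC offset, and that of Cox5b without sham 2 (adjusted p = 0.482). Interferon-induced genes were low, with a summed level of 40.1 to 48.8 CPM and 0 of 11 called. Hemoglobin was nearly absent, with 3 to 15 counts of Hbb-bs per library.

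The main axis of variation over all genes tested set sham 4 apart. On the deposited variance-stabilized values 60.9% of the variance lay on the first component, with scores of -11.9, -8.33, -13.5, 30.1 and 3.62 for sham 1 to sham 5. Malat1, Kcnq1ot1, Meg3, Gm45159 and Rtl1 had the lowest weights, and Pcsk1n, Cox8a and Cdk5r2 were among the 5 highest. The second component held 22.7% and separated sham 2 (-17.5) from sham 3 (12.1) and sham 5 (6.15). Ttr, Prkcd, Lars2 and Adora2a were at its low end, and Pcsk1n, Hist1h3h, Hist1h3i and Hist1h3b at its high end. The share of a component held by any group of genes was not tested. Without sham 4 the first component held 49.0%, and without any other library 63.0% to 75.5%.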

How the data were processed

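Bulk RNA-seq of cortex was used from the 5 sham libraries, placed in their group by the labels. The authors deposited raw counts per gene and variance-stabilized log2 values. Per the submitters' processing notes fastp, STAR, DESeq2 and the build GRCm39 were used; the read counter, annotation release, strand setting and handling of multiply mapped reads were not found in the labels or headers. From the deposited counts, CPM was computed on TMM-scaled totals with edgeR 4.0.16 in R 4.3.3; list levels are means of log2 CPM with a prior count of 2. Gene names, classes, exon lengths and GC content came from GENCODE release M21 (GRCm38), matched by gene ID for 52125 of 56748 genes holding 97.3% to 98.3% of the counts; as the builds differ, no coordinates are given. Of the list symbols, 724 of 729 matched. The filter of edgeR (minimum count 10) left 17900 genes. Each gene's 5 counts were tested against the trended dispersion with the goodness-of-fit test of edgeR and Benjamini-Hochberg adjustment over all genes tested; the computation was tested on simulated data. With 1 group the test speaks of spread among these libraries, not of a condition, and nothing in the labels separates spread between animals from spread between dissections or preparations. The column labels number the libraries, and sham 4 and sham 5 come last, after a gap from sham 1 to sham 3. What the numbers stand for is not said. Sham 4 and sham 5 were both above the other 3 libraries for 20.3% of the genes tested. First-component scores were negative for sham 1 to sham 3 and positive for sham 4 and sham 5. The part of library number in these differences was not tested.

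Genes were named by rule: the 15 with the most counts, the 15 nuclear protein-coding genes highest per kb, the most abundant and most variable members of each list, the most variable called genes with at least 1 and at least 20 CPM, the 10 steadiest with at least 20 CPM, the ends of the first components, and a few set markers. Other genes named, such as Hcrt, Pmch and Gbx2, were picked with their values in view. The libraries and lists were chosen with earlier results of these data known. Alternatives were DESeq2 size factors (version 1.42.0), other filters, a common dispersion, covariates, a GC offset, and leaving out each library. Some of the genes that the rule names, and 1 sequence, are not reported here.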

Additional observations from a re-analysis of the deposited data

Results flagged for a closer look

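Among 167 named genes and 49 lists, a library stood far from the other 4 for 26 genes and 3 lists, by Dixon's gap ratio above 0.71. Chance alone flags about 1 in 20 such groups, but many of these genes were named for their variation or with their values in view, so their number is not to be read against that rate. Most of these had sham 2 on top. Genes known from the thalamus were at 66.4 CPM (Prkcd), 48.6 CPM (Tcf7l2), 70.5 CPM (Slc17a6), 71.3 CPM (Plekhg1), 33.8 CPM (Synpo2), 30.6 CPM (Zic1), 26.2 CPM (Calb2) and 1.90 CPM (Gbx2) in sham 2. The mean level of the thalamic list was 5.65 log2 CPM there. Genes known from the hypothalamus or other deep regions were at 2.80 CPM (Hcrt), 3.36 CPM (Pmch), 1.11 CPM (Gal), 3.71 CPM (Nts), 5.05 CPM (Dgkk), 10.4 CPM (Dlk1), 5.65 CPM (Gpr101), 4.26 CPM (Irs4), 25.2 CPM (Baiap3) and 21.1 CPM (Agt) in sham 2. The newly formed oligodendrocyte list was also highest in sham 2, at 3.93 log2 CPM. That list includes Tcf7l2, which was its only called member, and 4 of its 9 tested members were highest in sham 2. The clock gene Per2 was lowest in sham 2, at 38 CPM.

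Sham 3 was highest for Gm21887 (160 CPM), Gm10925 (3260 CPM) and mt-Atp6 (2430 CPM), of which the last 2 share their sequence. It was lowest for Tle4 (85.1 CPM), Hexa (37.3 CPM) and the Pvalb interneuron list (4.42 log2 CPM), and these gaps were small in size. Sham 4 was highest for Calm2 (1081 CPM). Sham 1 was highest for 1810013L24Rik (89.5 CPM), the steadiest gene, by little more than 1 CPM.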

How the results depend on the processing

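No paired analysis was possible because only the sham libraries were used and no groups were compared. The 565 genes called became 1423 with a common dispersion (419 shared), 355 with the level of the nuclear-retained list as a covariate (217 shared) and 316 to 428 with 1 library left out; sham 4 gave the lowest (224 shared). DESeq2 size factors gave 563 (562 shared), no filter 403 (324 shared) and a minimum of 1 CPM 561 (523 shared). Chosen after seeing the data, a covariate for the striatal list gave 443 (400 shared) and the GC offset 459 (330 shared). The protein-coding share of 89.6% was 91.9% without mitochondrially encoded genes, and 89.2% to 90.1% with a library left out. The 15 genes with the most counts kept 14 to 15 of their number with a library left out. Of the 6 lists ranging over 1 log2 unit, 3 did so on the deposited variance-stabilized values, 5 with the GC offset and 4 to 6 with a library left out. Lists with a median CV over 2 times that of all genes numbered 10, and 8 to 11 with a library left out. The first component held 67.0% on log2 CPM, and 49.0% to 75.5% with a library left out. The cause of these shifts was not tested. Depth limits genes near the filter, where 18484169 counts in sham 3 set the weakest precision.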
